A study of Mus musculus with 63 samples.

Results

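Netrins and their receptors were followed through 4 sorted cell populations of the mouse cortex. The members were 10 genes of the 56980 in the count tables, taken by symbol: the receptors Dcc, Neo1, Unc5a, Unc5b, Unc5c and Unc5d, the co-receptor Dscam, and the netrins Ntn1, Ntn4 and Ntng1. The list was chosen by the burn against sham values of Dcc in ACSA2-positive astrocytes, around which it was built, so that comparison of Dcc is given below as a description, with no test. The other 9 were added as relatives of Dcc, with results of these data already known. In the mouse genome Dcc (ENSMUSG00000060534) lies on chromosome 18, Neo1 (ENSMUSG00000032340) on 9, Unc5a (ENSMUSG00000025876) on 13, Unc5b (ENSMUSG00000020099) on 10, Unc5c (ENSMUSG00000059921) on 3 and Unc5d (ENSMUSG00000063626) on 8. Dscam (ENSMUSG00000050272) lies on 16, Ntn1 (ENSMUSG00000020902) on 11, Ntn4 (ENSMUSG00000020019) on 10 and Ntng1 (ENSMUSG00000059857) on 3.

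Whole-transcriptome RNA-seq was done 5 weeks after a full-thickness skin burn or a sham injury, in female C57BL/6J mice that were 12 weeks old on arrival. Sham-injured mice were anaesthetised, injected and shaved but not burned. All mice had pain relief before surgery and in the drinking water, and some of the burn mice also needed it by injection afterwards, which cannot be told apart from the burn. Both primary motor cortices of all mice, burn and sham, had been injected with a mixture of AAV5-CamKII-eGFP, in which the CaMKII promoter of excitatory neurons drives eGFP, and AAV1-mDlx-NLS-mRuby2, in which an enhancer active in inhibitory neurons drives mRuby2. CaMKII positive neurons (eGFP only; 4 burn and 6 sham mice) and CaMKII-mDlx double-positive neurons (9 burn and 7 sham mice) were sorted from the motor cortex, and ACSA2-positive astrocytes (9 burn and 8 sham mice) and CD11b-positive microglia (8 burn and 7 sham mice) from the cortex behind it. Libraries of the same mouse came from up to 4 populations, and 58 libraries of 18 mice, in the 3 batches of the study, were compared.

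Netrins are secreted or membrane-anchored relatives of the laminins that steer growing axons and migrating cells. Ntn1 attracts through Dcc and its close relative Neo1, and repels where a receptor of the Unc5 family takes part, while Dscam can act beside Dcc. Ntn4 is a netrin of basement membranes that binds laminins, and Ntng1 is held at the cell surface by a lipid anchor and binds Lrrc4c rather than Dcc. In the adult brain the same molecules are known for roles at synapses, in blood vessels and in the upkeep of myelin.

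The sorted populations were checked against lists of marker genes, summed as CPM (the count of a gene relative to its library total). The lists of 8 astrocyte and 8 microglia markers stood at 36665 to 51002 CPM and 44.1 to 162 CPM in ACSA2-positive libraries, and at 199 to 356 CPM and 20423 to 32110 CPM in CD11b-positive ones. The labels of the other populations did not match their markers. CaMKII positive libraries held 13763 to 25714 CPM of the astrocyte list and 3336 to 9584 CPM of the 7 endothelial markers, against 22.9 to 400.0 CPM for the 7 excitatory neuron markers, which include Slc17a7 and Camk2a. Double-positive libraries held 17201 to 32189 CPM of the microglia list and 0.845 to 4.48 CPM of the 11 inhibitory neuron markers, which include Gad1 and Gad2. The populations are therefore called by their sort below. Libraries that stood apart were the double-positive one of burn mouse 10 and the ACSA2-positive one of sham mouse 13, and results that rest on them are given with and without them. Total counts ran from 13346143 to 134703744 per library, so that 3 counts, the most that a count of 0 allows, were 0.0223 to 0.225 CPM.

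Levels of different members can be set beside each other only per length, as CPM per kilobase of exon. On that scale Neo1, a receptor for netrins and for repulsive guidance molecules, stood first in each of the 4 populations. It averaged 30.6 ± 2.39 CPM per kb in ACSA2-positive (SD, n = 17), 20.6 ± 4.79 in CaMKII positive (n = 10), 1.93 ± 1.05 in double-positive (n = 16) and 1.79 ± 0.299 in CD11b-positive libraries (n = 15). In ACSA2-positive and CD11b-positive libraries the lowest Neo1 library was above the highest library of any other member.

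**Figure D1:**
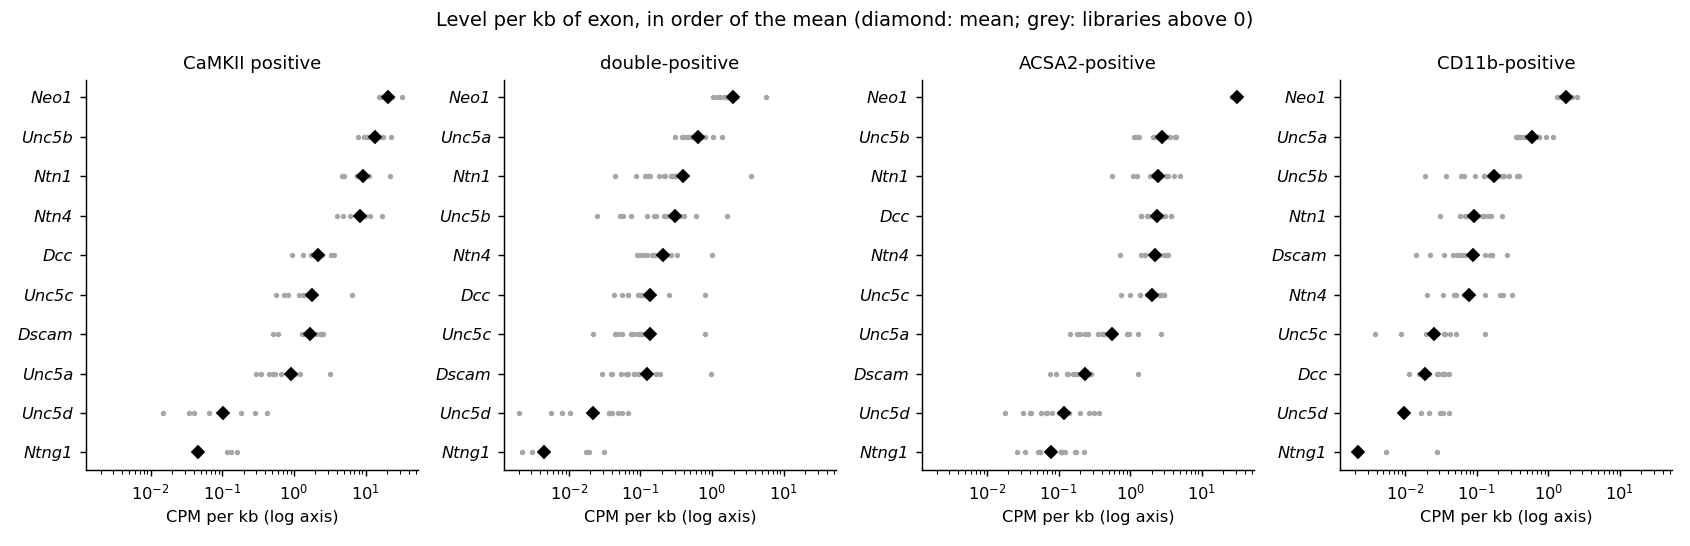
Level of the 10 members in each population, in CPM per kb of exon on a log axis, with a black diamond for the mean over all libraries and a grey point for each library above 0. Neo1 is the highest mean in each of the 4 panels, at 30.6 CPM per kb in ACSA2-positive and 1.79 in CD11b-positive libraries.

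The order below Neo1 differed between the populations. In CaMKII positive libraries Unc5b (13.7 ± 4.47 CPM per kb), Ntn1 (9.28 ± 4.87) and Ntn4 (8.49 ± 3.67) came next, and their ranges overlapped with each other and with Neo1. Dcc (2.15 ± 0.824), Unc5c (1.77 ± 1.74), Dscam (1.66 ± 0.714) and Unc5a (0.904 ± 0.852) followed and overlapped with each other. No library of Dcc, Dscam or Unc5a reached the lowest library of Ntn4 (3.97 CPM per kb), and 1 library of Unc5c did (sham mouse 8, 6.56 CPM per kb).

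In ACSA2-positive libraries Unc5b (2.74 ± 0.970 CPM per kb), Ntn1 (2.48 ± 1.07), Dcc (2.40 ± 0.679), Ntn4 (2.24 ± 0.665) and Unc5c (2.02 ± 0.651) lay so close that neighbours differed by less than their SD. Unc5a, Dscam, Unc5d and Ntng1 were under them, at 0.564, 0.233, 0.120 and 0.0793 CPM per kb. In both double-positive and CD11b-positive libraries Unc5a was second, at 0.641 ± 0.270 and 0.583 ± 0.235. In double-positive libraries Ntn1 (0.397 ± 0.821) and Unc5b (0.305 ± 0.380) came next and overlapped with Unc5a. The library of burn mouse 10 was the highest in both, and their medians were 0.214 and 0.222 where that of Unc5a was 0.594. In CD11b-positive libraries the other 8 members averaged at most 0.173.

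In the rest of the text levels are CPM of 1 gene at a time, given as the lowest, median and highest library of a population. Dcc, the receptor through which netrins attract, stood at 12.5, 27.2 and 48.4 CPM in CaMKII positive libraries and at 18.7, 30.0 and 48.7 CPM in ACSA2-positive ones. It stood at 0, 1.35 and 10.5 CPM in double-positive and at 0, 0.288 and 0.545 CPM in CD11b-positive libraries, with 0 counts in 2 of 16 and 5 of 15. Dcc was thus counted at like levels in the first pair of populations, and no library of that pair overlapped with any of the second.

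Neo1 stood at 135, 167 and 281 CPM in CaMKII positive, 227, 270.3 and 291 CPM in ACSA2-positive, 8.97, 14.5 and 49.4 CPM in double-positive and 11.6, 15.3 and 21.7 CPM in CD11b-positive libraries. In all 10 mice that gave both, Neo1 was lower in the CaMKII positive than in the ACSA2-positive library. The double-positive and CD11b-positive ranges overlapped, and both lay below the lowest library of the other populations.

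Unc5b, one of the Unc5 receptors that turn the response to netrin into repulsion and one known also from blood vessels, stood at 48.9, 82.3 and 143 CPM in CaMKII positive and at 7.14, 18.0 and 27.3 CPM in ACSA2-positive libraries. It stood at 0.154, 1.39 and 10.1 CPM in double-positive and at 0.117, 0.917 and 2.40 CPM in CD11b-positive libraries. The CaMKII positive libraries did not overlap with those of any other population.

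By its medians Unc5c had the order of populations that Dcc had, with ACSA2-positive libraries first. It stood at 10.8, 26.3 and 126 CPM in CaMKII positive, 14.3, 39.2 and 56.6 CPM in ACSA2-positive, 0.411, 1.93 and 15.4 CPM in double-positive and 0, 0.379 and 2.54 CPM in CD11b-positive libraries. The value of 126 CPM was that of sham mouse 8, and the other 9 CaMKII positive libraries lay between 10.8 and 35.5 CPM.

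Unc5a, a family member best known from neurons, was low throughout, at 1.22, 2.51 and 13.2 CPM, 0, 1.71 and 11.1 CPM, 1.29, 2.47 and 5.77 CPM, and 1.47, 2.01 and 4.87 CPM in CaMKII positive, ACSA2-positive, double-positive and CD11b-positive libraries. All 4 ranges overlapped. Unc5d reached at most 3.84 CPM, in a CaMKII positive library, and had 0 counts in 18 of the 58 libraries, 10 of them CD11b-positive.

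Of the ligands, Ntn1 stood at 29.8, 52.5 and 139 CPM in CaMKII positive and at 3.45, 14.6 and 31.0 CPM in ACSA2-positive libraries. Ntn4 stood at 14.9, 29.6 and 62.8 CPM and at 2.66, 8.47 and 12.8 CPM in the same populations. Both ligands were higher in the CaMKII positive than in the ACSA2-positive library of each of the 10 mice with both.

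In double-positive and CD11b-positive libraries the medians of Ntn1 were 1.35 and 0.585 CPM and those of Ntn4 were 0.576 and 0.181 CPM. Ntng1 was close to the limit of detection. It had counts in 13 of 17 ACSA2-positive, 4 of 10 CaMKII positive, 5 of 16 double-positive and 2 of 15 CD11b-positive libraries, and its highest value was 1.90 CPM.

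Dscam, an adhesion molecule of the immunoglobulin superfamily, stood at 4.48, 15.6 and 22.4 CPM in CaMKII positive libraries. In ACSA2-positive, double-positive and CD11b-positive libraries its medians were 1.71, 0.570 and 0.544 CPM. It was higher in the CaMKII positive library of all 10 mice that also gave an ACSA2-positive one.

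**Figure D2:**
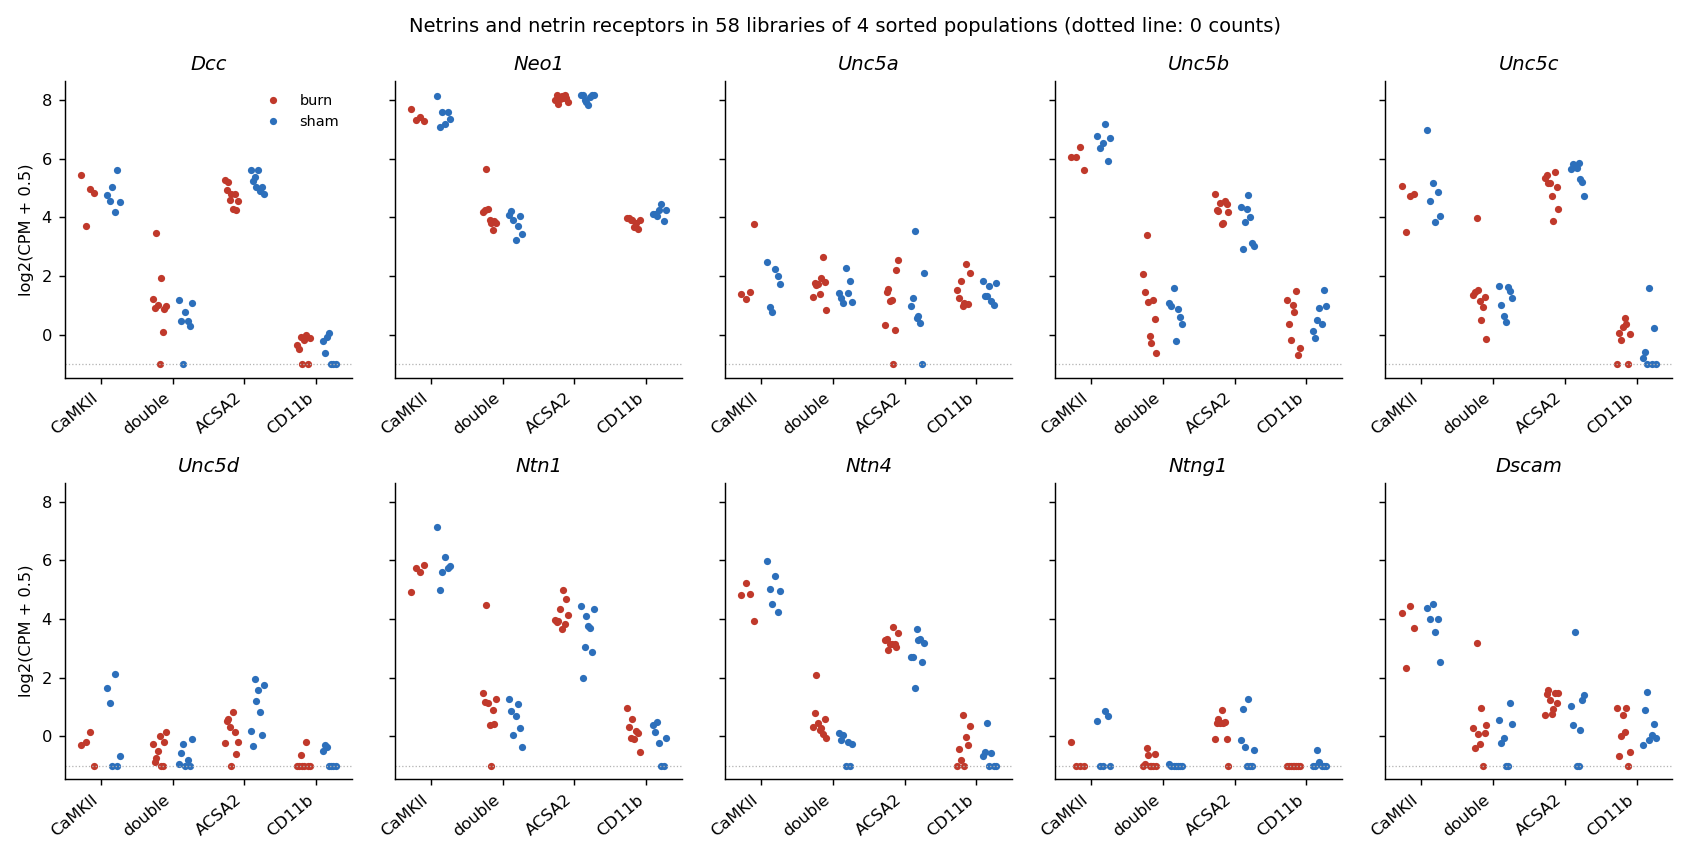
Each of the 58 libraries as 1 point, as log2(CPM + 0.5), in 10 panels for the members, with the 4 populations side by side and burn and sham mice in different colours. CaMKII positive and ACSA2-positive points lie above the other populations for Dcc and Neo1, and for Unc5b, Unc5c, Ntn1 and Ntn4 with the exception of 1 double-positive library (burn mouse 10), while the 4 populations overlap for Unc5a.

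Differences between populations were tested in 1 fit over the 58 libraries with edgeR's quasi-likelihood test, with sequencing batch and treatment as covariates. Values are log2FC ± standard error, and calls required an adjusted p (p.adj, Benjamini-Hochberg over all genes) no higher than 0.05 and a log2FC of at least 1 in either direction. RNA of a whole library cannot tell fewer cells of a type from less RNA per cell, which holds for each difference below.

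ACSA2-positive astrocytes differed from CD11b-positive microglia in 8 of the 10 members, each of them higher in ACSA2-positive libraries, where 53.8% of all 33150 genes tested were called, 32.1% higher and 21.7% lower. Dcc (7.13 ± 0.46, p.adj = 4.65e-21) and Unc5c (6.39 ± 0.49, p.adj = 1.06e-17) differed most. Ntn4 (5.01 ± 0.47, p.adj = 2.35e-14), Ntn1 (4.97 ± 0.43, p.adj = 9.89e-16), Neo1 (4.17 ± 0.14, p.adj = 1.13e-34) and Unc5b (4.10 ± 0.36, p.adj = 1.21e-15) followed, and Unc5d differed by 3.55 ± 0.84 (p.adj = 2.02e-04).

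Ntng1 was called as well (p.adj = 6.71e-05), but it had 5 counts in all over the CD11b-positive libraries and no fold is given. Dscam did not pass, at 1.21 ± 0.58 (p.adj = 0.0577), and neither did Unc5a, at −0.18 ± 0.42 (95% interval −1.01 to 0.65, p.adj = 0.730). Dscam passed when mouse 15 or mouse 16 was left out (1.58 and 1.30) and with all deposited libraries (1.40), and stood at 0.98 without the ACSA2-positive library of mouse 13 and the double-positive one of mouse 10. The median over the members was 4.57, against 0.24 over all genes.

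Markers of other cells were also higher in ACSA2-positive than in CD11b-positive libraries. The test called 6 of 7 endothelial, 7 of 7 mural, 7 of 7 oligodendrocyte precursor and 6 of 7 general neuronal markers higher, and 5 of 7 oligodendrocyte markers higher and 1 lower. It also called 4 of 7 excitatory and 5 of 11 inhibitory neuron markers higher. The endothelial list stood at 131 to 1256 CPM in ACSA2-positive and 62.5 to 158 CPM in CD11b-positive libraries, the mural list at 396 to 1031 and 4.35 to 23.2 CPM, and the oligodendrocyte precursor list at 187 to 289 and 2.46 to 15.6 CPM. Their part in the 8 members was not tested.

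CaMKII positive against ACSA2-positive libraries called 4 of the 10 members, all higher in CaMKII positive, against 18.4% of all genes called, 14.1% higher and 4.34% lower. They were Dscam (2.97 ± 0.64, p.adj = 1.64e-04), Unc5b (2.16 ± 0.34, p.adj = 5.21e-07), Ntn4 (1.81 ± 0.42, p.adj = 4.63e-04) and Ntn1 (1.77 ± 0.38, p.adj = 1.80e-04). The group therefore holds both secreted netrins of the list, 1 repulsive receptor and the co-receptor.

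Neo1 was lower in CaMKII positive libraries by less than the fold required, at −0.76 ± 0.14 (p.adj = 1.07e-05). Dcc (−0.31 ± 0.37, 95% interval −1.04 to 0.43) and Unc5c (−0.59 ± 0.43, −1.42 to 0.24) did not pass, nor did Unc5a, Unc5d and Ntng1. The median over the members was 0.21, against −0.03 over all genes. The endothelial list stood at 3336 to 9584 CPM in CaMKII positive and at 131 to 1256 CPM in ACSA2-positive libraries, the 7 mural cell markers at 638 to 1577 and 396 to 1031 CPM, and the 7 oligodendrocyte precursor markers at 307 to 775 and 187 to 289 CPM, with 7, 3 and 4 of the 7 called higher in CaMKII positive libraries. The microglia list stood at 465 to 2268 and 44.1 to 162 CPM with 8 of 8 called higher, and the oligodendrocyte list at 311 to 3882 and 128 to 754.5 CPM with 6 of 7 called higher. All 8 astrocyte markers were called lower. Of the neuron lists, 4 of 11 inhibitory, 2 of 7 general and 0 of 7 excitatory markers were called higher. The part of those cells in the 4 differences was not tested.

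Sequence upstream of the start site is shown for Unc5b and Ntn4, which were higher in CaMKII positive libraries in this comparison, and for Unc5c, an Unc5 receptor that did not pass. The 250 bases before each start come from RefSeq on GRCm38.p6, and 7 of the 10 members had an entry. The study names both mm10 and GRCm39 for the counts, so the builds may differ. Capitals mark the GC box GGGCGG, searched on both strands (also as CCGCCC, with overlaps allowed), the motif bound by factors of the Sp family.
Unc5b (chr10:60831582-60831831, minus strand): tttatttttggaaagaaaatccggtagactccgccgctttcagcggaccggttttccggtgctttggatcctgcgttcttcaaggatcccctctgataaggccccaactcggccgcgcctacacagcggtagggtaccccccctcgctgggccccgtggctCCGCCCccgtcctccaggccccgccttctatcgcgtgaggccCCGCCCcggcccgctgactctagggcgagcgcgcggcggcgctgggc
Ntn4 (chr10:93640799-93641048, plus strand): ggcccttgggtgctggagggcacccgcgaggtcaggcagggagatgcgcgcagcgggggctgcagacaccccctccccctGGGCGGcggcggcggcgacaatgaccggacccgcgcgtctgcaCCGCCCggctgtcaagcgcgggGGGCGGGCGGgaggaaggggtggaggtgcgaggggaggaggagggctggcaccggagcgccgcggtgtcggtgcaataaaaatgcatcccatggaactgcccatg
Unc5c (chr3:141465314-141465563, plus strand): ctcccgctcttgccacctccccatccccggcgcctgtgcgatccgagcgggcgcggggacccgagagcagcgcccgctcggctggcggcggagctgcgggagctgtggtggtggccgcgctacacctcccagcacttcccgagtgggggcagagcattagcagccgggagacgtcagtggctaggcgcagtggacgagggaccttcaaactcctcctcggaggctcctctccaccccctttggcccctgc
The window of Unc5b held 2 GC boxes, that of Ntn4 held 4 and that of Unc5c held 0, and 32.7% of 32851 promoter windows of the same length hold at least 1. Of the other 4 members with an entry, Unc5a, which did not pass, held 5, Neo1 and Ntng1 held 1 each, and Dscam, which had the highest log2FC of the members in this comparison, held 0. The 3 windows printed were rich in CpG, with 27, 26 and 23 in 250 bases, against a median of 6 over all windows. A match is a description of the letters, and was not tested against the levels.

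CaMKII positive against double-positive libraries called 8 of the 10 members higher in CaMKII positive, against 45.2% of all genes called, 27.7% higher and 17.5% lower. Unc5b (5.47 ± 0.39, p.adj = 7.95e-19), Ntn4 (5.41 ± 0.49, p.adj = 1.28e-14) and Ntn1 (4.88 ± 0.44, p.adj = 1.10e-14) differed most, followed by Dcc (3.99 ± 0.40, p.adj = 6.05e-13), Dscam (3.94 ± 0.66, p.adj = 6.68e-07), Unc5c (3.46 ± 0.44, p.adj = 8.75e-10) and Neo1 (3.32 ± 0.14, p.adj = 1.76e-28). Without mouse 10 these stood at 5.81, 5.76, 5.47, 4.35, 4.62, 3.93 and 3.49, in the same order. Ntng1 passed narrowly (p.adj = 0.0385) and lost the call when any 1 of the mice 2, 8, 11, 12, 13, 17, 18, 19 and 21 was left out and within batch 3, where its p.adj was 0.149. Unc5a (0.54 ± 0.46) and Unc5d (1.66 ± 0.92, p.adj = 0.115) did not pass, and Unc5d passed without mouse 24 (2.14). The markers of other cells moved with the members. All 8 astrocyte markers and all 7 of the endothelial, mural, oligodendrocyte and oligodendrocyte precursor lists were called higher in CaMKII positive libraries, and all 8 microglia markers lower. Of the neuron lists, 7 of 11 inhibitory, 5 of 7 general and 3 of 7 excitatory markers were called higher as well. The endothelial list stood at 3336 to 9584 CPM in CaMKII positive and 62.9 to 607 CPM in double-positive libraries, and the microglia list at 465 to 2268 CPM and 17201 to 32189 CPM. Their part in the 8 differences was not tested.

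Double-positive against CD11b-positive libraries, the populations with like levels of microglia markers, called 4 of the 10 members higher in double-positive, against 7.98% of all genes called, 6.37% higher and 1.62% lower. They were Dcc (2.83 ± 0.42, p.adj = 9.72e-07), Unc5c (2.35 ± 0.46, p.adj = 1.88e-04), Ntn1 (1.86 ± 0.41, p.adj = 9.64e-04) and Ntn4 (1.41 ± 0.46, p.adj = 0.0337). Neo1 did not pass, at 0.09 ± 0.13 (95% interval −0.16 to 0.33), nor did Unc5a (0.02 ± 0.42), Unc5b (0.79 ± 0.35, p.adj = 0.149), Unc5d, Ntng1 and Dscam. Of 26 alternatives, 3 gave Neo1 the other sign (down to −0.26) and 1 did so for Unc5b (−0.36). The sign differed in 8 for Unc5a, 4 for Dscam, 1 for Ntng1 and 0 for Unc5d.

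The astrocyte list stood at 483 to 1455 CPM in double-positive and 199 to 356 CPM in CD11b-positive libraries, with 7 of its 8 genes called higher, and the oligodendrocyte precursor list at 6.29 to 182 CPM and 2.46 to 15.6 CPM, with 7 of 7 called higher. Their part in the 4 members was not tested. The 4 calls also moved with the libraries and batches in the fit. Within batch 3, Dcc alone was called (2.27 ± 0.57, p.adj = 0.0103), and Unc5c (1.28 ± 0.48, p.adj = 0.115), Ntn1 (1.01 ± 0.41, p.adj = 0.157) and Ntn4 (0.30 ± 0.52, p.adj = 0.912) were not. With mouse as a replicate block, Ntn4 alone lost its call (1.43 ± 0.49, p.adj = 0.0727). Ntn4 also lost it when any 1 of the mice 2, 7, 8, 10, 13, 19, 21 and 23 was left out (0.98 without mouse 10), and Ntn1 stood at 1.11 without mouse 10.

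**Figure D3:**
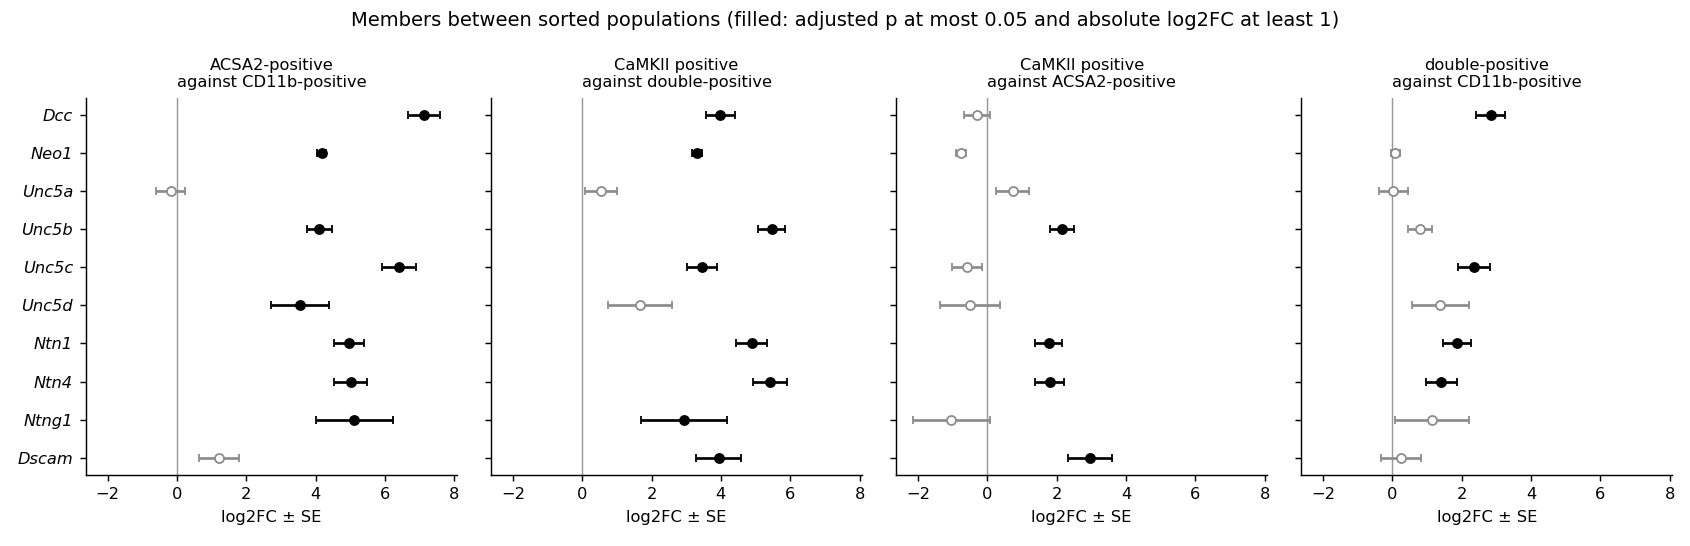
Log2FC ± standard error of each member in the 4 comparisons of populations, with filled points for those called (p.adj within 0.05 and a log2FC of at least 1 in either direction). Of the 10 members, 8 are called in ACSA2-positive against CD11b-positive, 8 in CaMKII positive against double-positive and 4 in each of the others, and no called point lies below 0.

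The double-positive library of burn mouse 10 stood apart from the other 15. It was the highest of the 16 in 8 of the 10 members, all but Unc5a and Unc5d. Ntn1 was counted there at 21.7 CPM against at most 2.28 CPM in any other double-positive library, Unc5c at 15.4 against 2.68 CPM, Dcc at 10.5 against 3.32 CPM, Dscam at 8.50 against 1.68 CPM and Unc5b at 10.1 against 3.74 CPM.

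Neo1 stood at 49.4 CPM in that library, where the other 15 reached 18.9 CPM, and Ntn4 at 3.72 CPM, where they reached 1.23 CPM. The same library had the highest sums of the oligodendrocyte precursor (182 CPM, next 54.8), endothelial (607 CPM), oligodendrocyte (427 CPM), mural (77.0 CPM) and excitatory neuron lists (63.3 CPM), and their part in the high members was not tested. Without it and the ACSA2-positive library of mouse 13, double-positive against CD11b-positive libraries still called Dcc (2.37), Unc5c (1.91) and Ntn1 (1.12) and not Ntn4 (1.05).

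**Figure D4:**
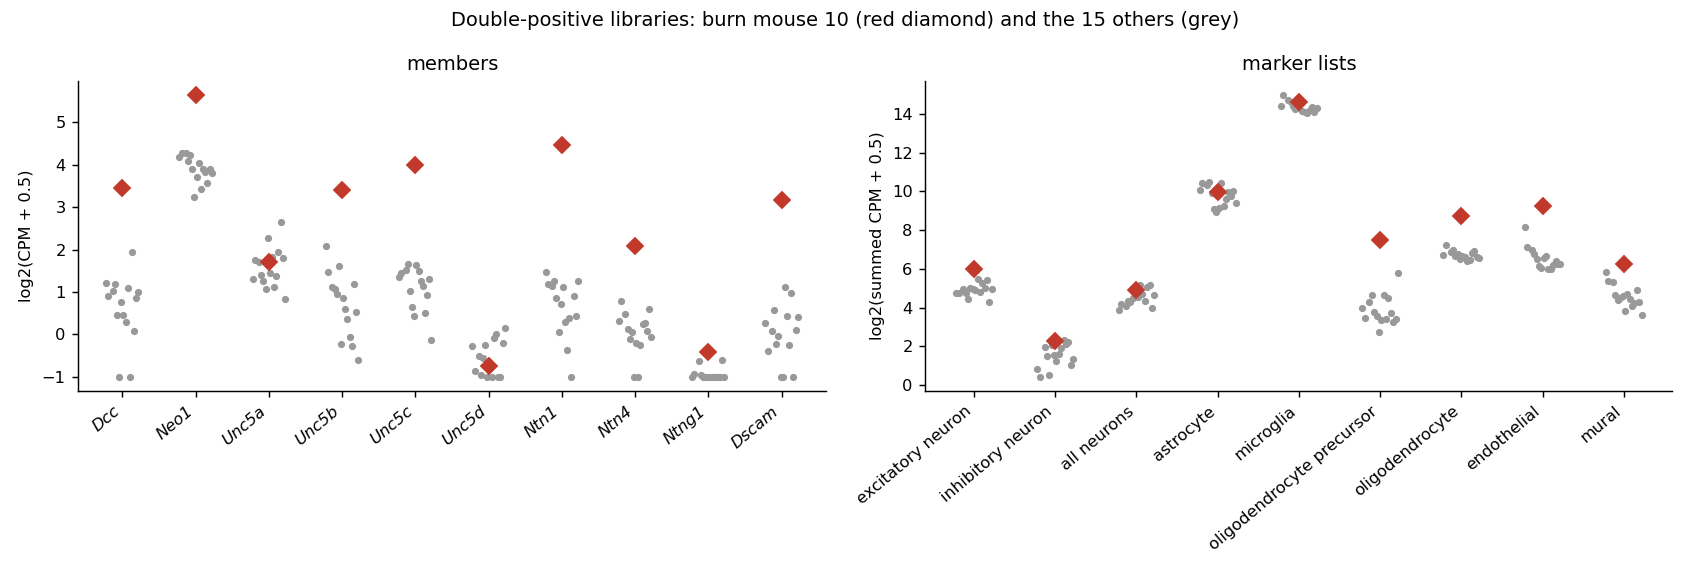
Members (left) as log2(CPM + 0.5) and marker lists (right) as log2(summed CPM + 0.5) in the 16 double-positive libraries, with the library of burn mouse 10 as a red diamond and the other 15 as grey points. The diamond is the highest point in 8 of the 10 members and in the oligodendrocyte precursor list, where it stands for 182 CPM.

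In ACSA2-positive astrocytes the library of sham mouse 13 was the highest of 17 in Dscam (11.2 CPM, others at most 2.48), Unc5a (11.1 CPM, others at most 5.38) and Unc5d (3.42 CPM, others at most 2.84), and in none of the other 7 members. Its excitatory neuron list stood at 1491 CPM, where the median of the 17 was 36.0 CPM, and its list of 7 markers of all neurons at 213 CPM, where the median was 33.2 CPM. In CaMKII positive libraries, sham mouse 8 was the highest of 10 in Ntn1 (139 CPM), Unc5c (126 CPM), Ntn4 (62.8 CPM) and Neo1 (281 CPM), and its 7 oligodendrocyte markers stood at 3882 CPM, where the median was 651 CPM. Without that mouse, the log2FC of CaMKII positive against ACSA2-positive libraries was 1.77 for Ntn1, −0.77 for Unc5c, 1.68 for Ntn4 and −0.75 for Neo1.

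Burn and sham-injured mice were then compared within each population, which was the purpose of the study. Dcc in ACSA2-positive libraries, on which the list was built, is left out of the counts of members here. No other value of a member passed both thresholds in any of the 4 populations, and 0.0% of all genes did, 0 of 28107 in CaMKII positive, 0 of 26707 in double-positive, 0 of 27930 in ACSA2-positive and 0 of 26079 in CD11b-positive libraries. Unadjusted p-values under 0.05 were found for 1096, 1872, 2984 and 2036 genes, and for 1 member in each population. With DESeq2 in place of edgeR, 3, 2, 27 and 80 genes passed both thresholds and 0 members did. Ntng1 had too few counts to be tested in CD11b-positive microglia.

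In ACSA2-positive astrocytes Dcc was counted at 38.1, 30.0, 36.0, 23.7, 27.1, 18.9, 27.1, 18.7 and 22.8 CPM in burn mice 2, 7, 10, 11 and 20 to 24. In sham mice 8, 12, 13 and 15 to 19 it was counted at 48.7, 37.3, 40.6, 32.0, 48.3, 29.2, 31.9 and 27.0 CPM. The groups overlapped, with 4 of the 9 burn mice below every sham mouse and 7 of the 9 below the sham median.

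Over the 9 burn mice Dcc averaged 26.9 ± 6.84 CPM (SD) and over the 8 sham mice 36.9 ± 8.36 CPM. The log2FC was −0.60 ± 0.12. Since the list was built on this difference, it is described here with no test. By batch, the means were 34.7 ± 4.19 CPM in 3 burn mice against 48.7 CPM in 1 sham mouse in batch 1, 23.7 CPM in 1 burn mouse against 38.9 ± 2.34 CPM in 2 sham mice in batch 2, and 22.9 ± 4.16 against 33.7 ± 8.42 CPM in 5 mice each in batch 3.

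The 8 astrocyte markers summed to 36841 to 48395 CPM in burn mice (median 41077) and 36665 to 51002 CPM in sham mice (median 46829), and the excitatory neuron list to 17.9 to 244 CPM and 12.5 to 1491 CPM. Their part in the level of Dcc was not tested. Elsewhere Dcc had a log2FC of −0.08 ± 0.34 in CaMKII positive, 0.49 ± 0.76 in double-positive and 0.24 ± 1.26 in CD11b-positive libraries, and at most 20 counts in any CD11b-positive library. The effect of the burn on Dcc was 0.81 ± 0.59 higher on the log2 scale in CD11b-positive than in ACSA2-positive libraries, given with no test because the latter chose the list, and −0.86 ± 0.94 in CaMKII positive against double-positive libraries (p.adj = 1.00).

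Unc5c was also lower in the ACSA2-positive libraries of burn mice, without passing the test. Its lowest, median and highest values were 14.3, 35.4 and 46.0 CPM in burn mice and 26.1, 50.02 and 56.6 CPM in sham mice, and all 9 burn mice were under the sham median. The log2FC was −0.57 ± 0.19 (p.adj = 0.458). Batch means were 39.4 ± 3.68 against 49.5 CPM in batch 1, 35.9 against 53.9 ± 3.37 CPM in batch 2 and 27.6 ± 12.4 against 41.7 ± 12.0 CPM in batch 3, so the difference lay in the same direction in each.

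Neo1, the closest relative of Dcc, averaged 266 ± 18.8 CPM in burn and 268 ± 24.2 CPM in sham mice. Its log2FC was −0.04 (95% interval −0.21 to 0.13). Unc5b (19.4 ± 4.52 and 14.7 ± 6.89 CPM, log2FC 0.32 ± 0.23, p.adj = 0.695), Ntn1 (18.1 ± 6.28 and 12.7 ± 6.37 CPM, 0.49 ± 0.26, p.adj = 0.518) and Ntn4 (9.18 ± 1.74 and 7.45 ± 2.98 CPM, 0.30 ± 0.22, p.adj = 0.709) had higher means in burn mice and did not pass. The 7 endothelial markers summed to 417.5 to 1256 CPM in burn and 131 to 726 CPM in sham mice, with unadjusted p-values under 0.05 for 6 of the 7, and their part in these means was not tested. Unc5d stood at 0, 0.611 and 1.26 CPM in burn and 0.293, 1.56 and 3.42 CPM in sham mice and did not pass, with a log2FC of −1.49 (95% interval −3.06 to 0.08). Unc5a and Dscam gave 0.34 ± 0.84 and 0.43 ± 0.79, and without the batch term −0.41 and −0.39. Without sham mouse 13, the log2FC was −1.15 for Unc5d, 0.56 for Unc5a and 0.80 for Dscam. Ntng1 stood at 0, 0.885 and 1.39 CPM in burn and 0, 0.249 and 1.90 CPM in sham mice (0.70 ± 1.10, and 2.28 without mouse 16) and did not pass.

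**Figure D5:**
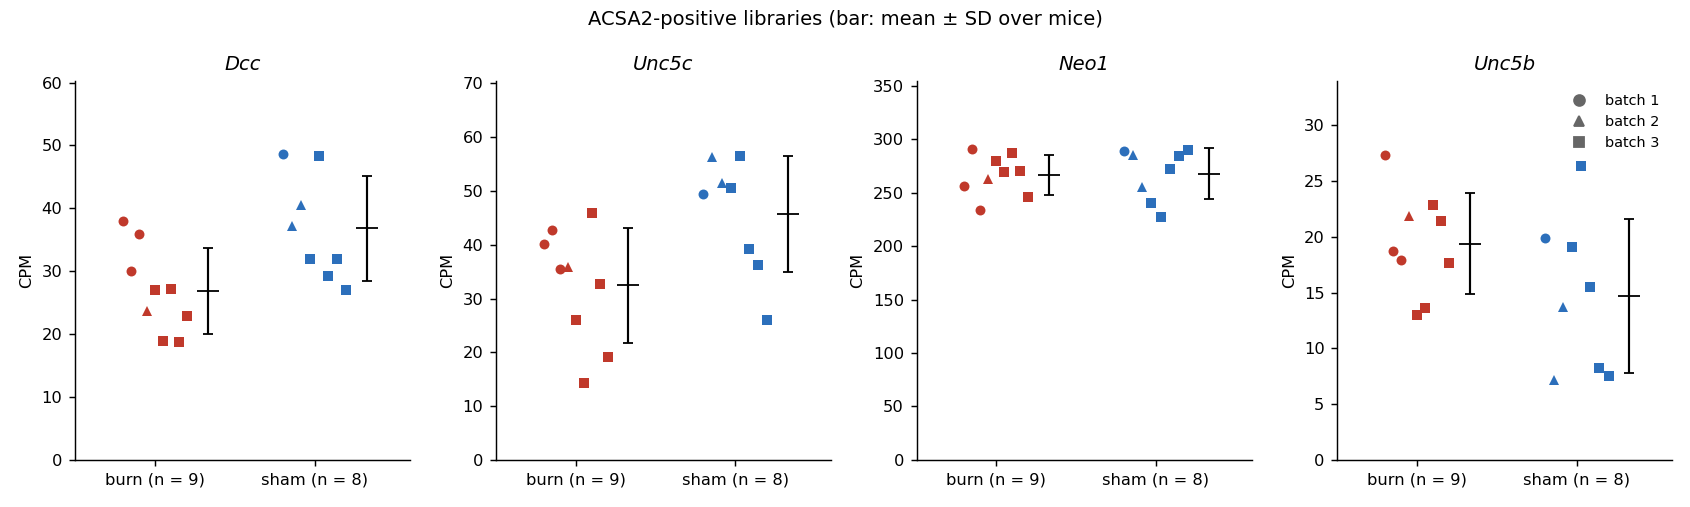
CPM of Dcc, Unc5c, Neo1 and Unc5b in each ACSA2-positive library of 9 burn and 8 sham mice, with a marker for each batch and the mean ± SD of each group. Means of Dcc are 26.9 and 36.9 CPM with overlapping points, and those of Neo1 are 266 and 268 CPM.

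In CD11b-positive microglia the member with the smallest p was Neo1. It was counted at 11.6, 14.5 and 15.3 CPM in burn mice and 14.2, 17.0 and 21.7 CPM in sham mice, with all 8 burn mice under the sham median and 3 under every sham mouse. The log2FC was −0.35 ± 0.13 (p.adj = 0.639). Batch 3 gave 13.3 ± 1.30 against 17.8 ± 2.86 CPM in 5 mice each, and batch 1 gave 15.1 ± 0.450 CPM in 3 burn mice against 17.0 CPM in 1 sham mouse. The endothelial list stood at 62.5 to 105 CPM in burn and 74.3 to 158 CPM in sham microglia, and its part was not tested.

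Unc5a stood at 2.58 ± 1.24 and 2.26 ± 0.611 CPM in burn and sham microglia (log2FC 0.16 ± 0.38), and Unc5b at 1.04 ± 0.790 and 1.14 ± 0.675 CPM (−0.15 ± 0.66). The other 6 members that were tested averaged under 1 CPM there and had intervals of over 3 log2 units. A log2FC of 1 in either direction lay within each of these intervals. For Ntn4 the interval ran from −1.51 to 3.55.

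In CaMKII positive libraries Unc5b was the member with the smallest p. It was counted at 66.5, 66.7, 83.8 and 48.9 CPM in burn mice 2, 20, 22 and 24 and at 60.1, 98.7 and 143 CPM as the lowest, median and highest of 6 sham mice. All 4 burn mice were under the sham median and 1 was under every sham mouse. The log2FC was −0.58 ± 0.24 (p.adj = 1.00), with 66.5 against 109.5 CPM in 1 mouse each in batch 1 and 66.5 ± 17.5 against 96.3 ± 30.9 CPM in batch 3. The mural list stood at 638 to 1153 CPM in burn and 960 to 1577 CPM in sham mice, with unadjusted p-values under 0.05 for 3 of 7 genes, and the oligodendrocyte precursor list at 504 to 775 and 307 to 665 CPM, with 4 of 7. Their part in the level of Unc5b was not tested.

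Dcc was counted at 42.8, 12.5, 30.4 and 27.7 CPM in the same 4 burn mice and at 17.5, 24.9 and 48.4 CPM in sham mice, and Neo1 at 204, 158, 173 and 156 CPM and at 135, 177 and 281 CPM. Neither gene separated the groups. Ntn1 (46.8 ± 11.9 and 65.9 ± 37.7 CPM, log2FC −0.39 ± 0.33), Ntn4 (27.0 ± 9.06 and 34.9 ± 16.2 CPM, −0.35 ± 0.31) and Unc5c (24.1 ± 9.45 and 40.4 ± 42.5 CPM, −0.49 ± 0.37) had lower means in burn mice. Without sham mouse 8 these log2FC were 0.03, −0.13 and −0.14. Batch 1 held only burn mouse 2 and sham mouse 8 here, so leaving out either of them left the burn effect to batch 3. Without burn mouse 2, Ntn1 and Ntn4 likewise stood at 0.03 and −0.13.

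Unc5a stood at 2.12, 1.85, 2.25 and 13.2 CPM in burn mice, and its log2FC of 0.70 ± 0.76 was −0.58 without burn mouse 24. The excitatory neuron list of mouse 24 stood at 400.0 CPM, the highest of the 10 libraries. The estimates of 9 of the 10 members lay below 0, with a median of −0.37 against 0.02 over all genes. Without sham mouse 8, which left the burn effect to batch 3, the estimate of Ntn1 was above 0, that of Dcc was −0.28 and no other member changed sign. The estimate of Ntn1 was also above 0 (0.03) without burn mouse 2, the other mouse of batch 1. Dscam averaged 13.9 ± 7.25 CPM in burn and 15.1 ± 6.24 CPM in sham mice (−0.17 ± 0.44), and Unc5d stood at 0, 0.345 and 0.599 CPM and at 0, 0.920 and 3.84 CPM (−2.09 ± 1.83). The log2FC of Unc5d was −0.99 without sham mouse 17 and −2.69 without burn mouse 22. Ntng1 had counts in 1 of 4 burn and 3 of 6 sham mice, and no fold is given.

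In double-positive libraries Ntn4 was counted at 0.463, 0.748 and 3.72 CPM in burn mice, from 9 to 118 counts, and at 0, 0.368 and 0.595 CPM in sham mice, from 0 to 32 counts. Of the 9 burn mice, 7 were above every sham mouse. The log2FC was 1.30 ± 0.73 (p.adj = 0.775), with 0.682 ± 0.206 against 0.248 ± 0.239 CPM in batch 3 and 0.888 against 0.510 ± 0.120 CPM in batch 2, while batch 1 held burn mice only. The astrocyte list stood at 688 to 1380 CPM (median 996) in burn and 483 to 1455 CPM (median 614) in sham mice. The oligodendrocyte precursor list stood at 8.95 to 182 and 6.29 to 25.0 CPM. In both lists 0 genes had an unadjusted p under 0.05, and their part in the level of Ntn4 was not tested. Ntng1, the member with an unadjusted p under 0.05 here, had counts in 4 of 9 burn mice, at most 8, and 1 count in 1 of 7 sham mice (p.adj = 0.708), and no fold is given.

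Unc5a averaged 2.87 ± 1.25 CPM in burn and 2.41 ± 0.965 CPM in sham mice (log2FC 0.31 ± 0.35, and 0.24 without the batch term), and Unc5d 0.242 ± 0.227 and 0.150 ± 0.179 CPM (0.88 ± 1.18, and 0.71). Neither passed.

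The values of 5 other members moved more with the treatment of batch 1, which includes mouse 10. Means were higher in burn mice for Dcc (2.43 ± 3.14 and 1.01 ± 0.599 CPM), Unc5b (2.38 ± 3.11 and 1.30 ± 0.698), Unc5c (3.15 ± 4.62 and 1.85 ± 0.732), Ntn1 (3.60 ± 6.81 and 1.08 ± 0.595) and Dscam (1.47 ± 2.67 and 0.617 ± 0.601). Without the library of mouse 10 the burn means were 1.43 CPM for Dcc, 1.42 for Unc5b, 1.63 for Unc5c, 1.34 for Ntn1 and 0.592 for Dscam, so that those of Unc5c and Dscam were then below the sham means. With batch in the fit their log2FC was 0.49 ± 0.76, −0.51 ± 0.54, −0.31 ± 0.49, 0.15 ± 0.65 and 0.04 ± 0.97. Without the batch term it was 1.23, 0.87, 0.74, 1.69 and 1.24, so that Unc5b and Unc5c changed direction. Neo1 averaged 19.1 ± 11.6 CPM in burn mice, 15.3 without mouse 10, and 13.9 ± 3.39 CPM in sham mice. Its log2FC was 0.12 ± 0.20, with an interval from −0.27 to 0.52, and 0.45 without the batch term.

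The effect of the burn was also compared between populations. No member was called between CaMKII positive and double-positive libraries, where 0.0228% of 30693 genes were called, and 0 of the 9 members other than Dcc were called between CD11b-positive microglia and ACSA2-positive astrocytes, where 0.00323% of 30983 genes were called. The difference for Neo1 in the latter comparison was −0.27 ± 0.13 (p.adj = 0.511), and that for Ntn4 in the former was −1.66 ± 0.68 (p.adj = 0.649). Ntng1 had 20 counts in all over the double-positive and 5 over the CD11b-positive libraries, so its values here rest on few counts. Unadjusted p-values under 0.05 were found for Ntn4 and Ntng1 in the former and for Ntng1 in the latter, and for 6.77% and 9.80% of all genes. With mouse as a replicate block, 467 genes in the former and 1033 in the latter had such p-values, in place of 2078 and 3037.

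Other genes of the pathway were read from lists written around the members. Of 5 further netrins and receptors, 5 were higher in ACSA2-positive than in CD11b-positive and 5 in CaMKII positive than in double-positive libraries, 2 had higher levels in CaMKII positive libraries when set against ACSA2-positive ones, and 0 were called between double-positive and CD11b-positive libraries. Over all genes, 32.1%, 27.7%, 14.1% and 6.37% were called higher in these comparisons. The median log2FC of the list in ACSA2-positive against CD11b-positive libraries was 3.05, where that of all genes was 0.24. Mcam, an adhesion molecule of blood vessels that also binds netrin, was higher in CaMKII positive libraries by 4.92 ± 0.42 against double-positive (p.adj = 9.13e-16) and by 1.45 ± 0.37 against ACSA2-positive ones (p.adj = 0.00138). Ntng2, the sister gene of Ntng1, averaged 8.81 CPM over the 58 libraries, was higher in ACSA2-positive than in CD11b-positive libraries by 2.48 ± 0.19 (p.adj = 2.00e-17), and had values of 15.9 ± 2.68 CPM in ACSA2-positive and 16.3 ± 6.90 CPM in CaMKII positive ones. Ntn5 averaged 0.265 CPM.

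Of 9 other ligands of these receptors, 7 were higher and 1 lower in ACSA2-positive than in CD11b-positive libraries, 8 and 1 in CaMKII positive than in double-positive, 5 and 0 in double-positive than in CD11b-positive, and 0 and 1 when CaMKII positive libraries were set against ACSA2-positive ones. The shares of all genes called higher and lower were 32.1% and 21.7%, 27.7% and 17.5%, 6.37% and 1.62%, and 14.1% and 4.34%, and the median of the list in the first of these comparisons was 6.54. Rgma, a repulsive ligand of Neo1, was the ligand lower in CaMKII positive libraries against ACSA2-positive ones (−1.04 ± 0.25, p.adj = 5.88e-04) and stood 9.16 ± 0.31 higher in ACSA2-positive than in CD11b-positive ones (p.adj = 5.72e-34). Its relative Rgmb stood at −2.32 ± 0.09 in ACSA2-positive against CD11b-positive libraries (p.adj = 2.31e-31). It was named after its values were seen, because it was the only ligand called lower in that comparison. Flrt1, of a family that binds Unc5 receptors, was 9.41 ± 0.37 higher in ACSA2-positive libraries (p.adj = 6.09e-31), and Adgrl1, a latrophilin that binds Flrt proteins, 4.30 ± 0.14 (p.adj = 3.93e-35).

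Of 6 partners of Ntng1 and Ntn4, 4 were higher and 1 lower in ACSA2-positive than in CD11b-positive libraries, and 4, 2 and 1 were higher in the comparisons of CaMKII positive with double-positive, of double-positive with CD11b-positive and of CaMKII positive with ACSA2-positive libraries. Over all genes 32.1% were higher and 21.7% lower in the first comparison, and 27.7%, 6.37% and 14.1% were higher in the others, so that the 1 gene of 6 on the lower side and on the higher side in the last is near the share of all genes. The median of the list in ACSA2-positive against CD11b-positive libraries was 2.43. Lrrc4c, the partner of Ntng1, was 6.47 ± 0.43 higher in ACSA2-positive than in CD11b-positive libraries (p.adj = 1.20e-20), and the laminin chain Lamb1 6.24 ± 0.69 (p.adj = 8.26e-12). The integrin subunit Itgb1 was lower there by 1.44 ± 0.11 on the log2 scale (−1.44, p.adj = 2.21e-18), and higher in CaMKII positive libraries against ACSA2-positive ones (1.24 ± 0.12, p.adj = 3.14e-13). Its partner Itga6 passed no fold threshold, at −0.95 ± 0.09 and 0.87 ± 0.10.

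Of 19 intracellular effectors tested, 8 were higher and 4 lower in ACSA2-positive than in CD11b-positive libraries, 7 and 1 in CaMKII positive than in double-positive, 2 and 0 in double-positive than in CD11b-positive, and 1 and 1 in CaMKII positive than in ACSA2-positive ones. Over all genes, 32.1% and 21.7%, 27.7% and 17.5%, 6.37% and 1.62%, and 14.1% and 4.34% were higher and lower in these comparisons, and no count of effectors stood far above its share. The median of the list in the first comparison was 0.52 against 0.24 over all genes. Trim9, a ubiquitin ligase that binds Dcc, was 8.13 ± 0.33 higher in ACSA2-positive libraries (p.adj = 1.21e-30), and Enah, a regulator of actin, 6.96 ± 0.20 (p.adj = 1.66e-37). The GTPase Cdc42 was among the 4 that were lower (−1.23 ± 0.08, p.adj = 4.61e-20).

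Of 7 Slits and Robos, another family of guidance molecules, 6 were higher in ACSA2-positive than in CD11b-positive libraries, where 32.1% of all genes were, with a median of 4.14. In CaMKII positive against double-positive and in double-positive against CD11b-positive libraries 5 were higher, where 27.7% and 6.37% of all genes were. In ACSA2-positive against CD11b-positive libraries Robo1 led with 8.08 ± 0.44 (p.adj = 1.71e-24), followed by Robo2 with 6.78 ± 0.38 (p.adj = 9.32e-24). CaMKII positive against ACSA2-positive libraries called 3 higher and 2 lower, against 14.1% and 4.34% of all genes. Robo1 and Robo2 were lower, at −1.32 ± 0.35 and −1.01 ± 0.33 (p.adj = 0.00224 and 0.0146), and Robo4, a Robo of blood vessels, was higher (2.82 ± 0.48, p.adj = 2.27e-06). So were Robo3 (3.18 ± 1.17, p.adj = 0.0317) and Slit3 (2.64 ± 0.72, p.adj = 0.00276), named after their values were seen. In all 5 lists, 0 genes were called between burn and sham mice in any population.

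The genes whose levels were most like those of a member were found by Pearson's r of log2(CPM + 0.5) over the 58 libraries, among 16813 genes. The 58 points share mice and fall into 4 populations, so r reflects those populations and is given as a description. The 5 genes most like Dcc were Mmp16 (r = 0.975), Fkbp10 (0.973), Brinp3 (0.971), Hhatl (0.971) and S100b (0.971), the last a calcium-binding protein known from astrocytes.

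Neo1 was most like Scd2 (r = 0.993), a desaturase of fatty acids, Unc5b most like Flvcr2 (0.971) and Unc5c most like Atp1b1 (0.971), a subunit of the sodium pump. Ntn1 was most like Pde5a (0.964), Ntn4 most like Tead2 (0.967) and Dscam most like Ugt8a (0.866), an enzyme of myelin lipids. The low genes Unc5d, Ntng1 and Unc5a reached 0.729, 0.711 and 0.613 at most.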

How the data were processed

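Raw counts per Ensembl gene, deposited by the authors for 63 libraries, were used. Per the study's methods, reads were trimmed of their first 15 bases with fastp, aligned with STAR 2.7.1 to GRCm39 (the processing notes also list mm10) and counted with GenomicAlignments. The strand setting is not given in the sources used here, so Unc5a, Unc5c and Dscam, which overlap genes on the other strand by 0.816%, 0.617% and 3.10% of their exons, may hold a few of those reads. The deposited tables of transformed values were not used.

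Mouse 3 (ulcerated skin) and the double-positive library of mouse 8 (library size) were left out, as in the study, which left 58 libraries with 13346143 to 134703744 counts. Genes with at least 10 counts in total were tested with edgeR 4.0.16 in R 4.3.3 (TMM, quasi-likelihood), with batch as a covariate for burn against sham, and with batch and treatment in 1 fit over the populations. Calls required an adjusted p (Benjamini-Hochberg over all genes tested) no higher than 0.05 and a log2FC of at least 1 in either direction. CPM were scaled to plain library totals, and CPM per kb used merged exon lengths of GENCODE M21 (GRCm38). Intervals given as 95% were taken from the standard error with normal quantiles, so they are somewhat too narrow for so few mice. Scripts were tested on simulated counts with 100 genes changed by each known fold. Changes of 2-fold sit at the fold threshold. Between burn and sham, 9% of them were called in CaMKII positive, 30% in double-positive, 34% in ACSA2-positive and 49% in CD11b-positive libraries. Of 4-fold changes, 52%, 88%, 82% and 79% were called, so that true changes can be missed. False calls numbered 9, 5, 3 and 11, and 87 in CaMKII positive against ACSA2-positive libraries.

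The members, gene lists and rules were chosen with earlier results of these data known. Levels of all 10 members were read in every population. Of each pathway list the text names genes called between burn and sham mice, or otherwise the 2 of highest mean CPM and the 2 of largest absolute log2FC between populations, and of similar genes the 1 with the highest r (5 for Dcc). A number names the same mouse in every population, so numbers pair libraries by animal. Deviations of same-numbered libraries from their group means had a median r of −0.003 to 0.069 over the 6 pairs of populations. Alternatives were DESeq2 1.42.0, other scalings and filters, all deposited libraries, no batch term, batch 3 alone, mouse as a replicate block, and each mouse left out.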

Additional observations from a re-analysis of the deposited data

Results flagged for a closer look

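In 79 sets of libraries (a member in the burn or sham mice of 1 population), 19 single values stood apart from the others of their set by Dixon's criterion. Its cutoff of 1 set in 20 holds for normally distributed values, which CPM with many values of 0 need not be. The 19 are therefore not set against chance. All of them were the highest of their set. For 2 of them, both of Ntng1, every other library of the set had 0 counts, so that any count would have stood apart. The double-positive library of burn mouse 10 gave 7 of them, with Neo1 at 49.4 CPM, Ntn1 at 21.7 CPM, Unc5c at 15.4 CPM, Dcc at 10.5 CPM, Unc5b at 10.1 CPM, Dscam at 8.50 CPM and Ntn4 at 3.72 CPM. The ACSA2-positive library of sham mouse 13 gave Dscam at 11.2 CPM and Unc5a at 11.1 CPM, and the CaMKII positive library of sham mouse 8 gave Ntn1 at 139 CPM and Unc5c at 126 CPM.

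Unc5a also stood apart in burn mouse 24 of the CaMKII positive set, at 13.2 CPM, and in burn mouse 22 of the double-positive set, at 5.77 CPM. Among CD11b-positive libraries the values were Unc5c at 2.54 CPM in sham mouse 16, Ntn4 at 0.860 CPM and Ntng1 at 0.229 CPM in sham mouse 15, and Unc5d at 0.375 CPM in burn mouse 22. Ntng1 stood apart at 0.386 CPM in CaMKII positive burn mouse 2 and at 0.0186 CPM, from 1 count, in double-positive sham mouse 12.

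Mouse 3, a burn mouse left out of all comparisons, had 3 members above every sham mouse in its ACSA2-positive library. Unc5b was counted there at 28.8 CPM (highest sham mouse 26.3 CPM), Ntn1 at 26.9 CPM (highest sham mouse 21.3 CPM) and Ntng1 at 3.17 CPM (highest sham mouse 1.90 CPM).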

How the results depend on the processing

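The 38 burn against sham log2FC values of the members (Dcc in ACSA2-positive libraries is left out) had 848 alternative values. Shifts were set against the SD of log2(CPM + 0.5) between mice within the groups, which is not the standard error of the log2FC. Of the alternatives, 815 moved by no more than that SD and 33 moved further. The other sign was seen in 37, in 18 members and populations, and 0 members were called under any alternative. Of 40 values between populations, 995 of 1040 alternatives kept their side of the threshold or moved by no more than that SD. A call was lost in 23 and gained in 4, and 18 moved further than the SD. The number of all genes called between burn and sham mice, 0 in each population, became 3 in CaMKII positive, 2 in double-positive, 27 in ACSA2-positive and 80 in CD11b-positive libraries with DESeq2, 14 in double-positive and 4 in ACSA2-positive without the filter on low counts, and 136 in double-positive libraries when all deposited libraries were used. The 2647 genes between double-positive and CD11b-positive libraries became 1529 with mouse as a replicate block and 1056 in batch 3 alone, where 1 member was called instead of 4. Between populations' burn effects, the 7 genes of CaMKII positive against double-positive libraries became 0 with the replicate block and 0 in batch 3, and the 1 gene of CD11b-positive against ACSA2-positive libraries became 0 and 3. The block changed 1 member call, Ntn4 between double-positive and CD11b-positive libraries (log2FC 1.43), and no other. The cause of these changes was not tested.

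With each mouse left out, 5634 to 6263 genes were called in CaMKII positive against ACSA2-positive (6104 with all mice), 2220 to 2627 in double-positive against CD11b-positive, 17321 to 17631 in ACSA2-positive against CD11b-positive (17838) and 14519 to 14819 in CaMKII positive against double-positive libraries (14991), and 4, 3 to 4, 8 to 9 and 7 to 9 members. Scaling by library size moved the median of all genes from −0.03 to 0.15 in CaMKII positive against ACSA2-positive and from 0.14 to 0.25 in CaMKII positive against double-positive libraries, and changed no member call. Depth limits Ntng1, Unc5d and the CD11b-positive levels of Dcc, Unc5c and Ntn4. Over all libraries 3 counts were 0.0223 to 0.225 CPM, and over the CD11b-positive ones 0.0547 to 0.181 CPM.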
